A study of Thlaspi arvense with 6 samples.

Results

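The loci described here are the membrane lipid and sphingolipid genes of the pennycress (Thlaspi arvense) nectary, 108 of the 12335 loci measured. They were chosen by words in the description of each locus's Arabidopsis match: fatty acid desaturase, phospholipase, phosphatidyl, sphingo, ceramid or diacylglycerol. The description was that of the contig with the highest mean over all samples. Differences between stages did not enter this match. Nectaries of cultivar MN108 were compared at 2 stages, immature (before secretion, flower stages 11 to 12) and mature (secreting nectar, stages 14 to 15), each in 3 samples. According to the sample labels, a sample was a pool of approximately 100 hand-dissected nectaries. They came from untreated plants aged around 40 days and were taken between 4 and 8 h past dawn. The study's own text states another pool size, light level and temperature. It gives replicates as pools from different plant sets, without saying whether both stages shared plants. Both stages came from the same cultivar and growth conditions, so that flower stage was the only labelled difference. The values are read counts per locus, upper-quartile normalized and rounded by the authors, summed here over the contigs of a locus.

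Plant membrane lipids are made in plastids, which assemble galactolipids and sulfolipid, and in the endoplasmic reticulum, which assembles phospholipids, and fatty acid desaturases in each compartment put double bonds into the acyl chains of the finished lipids. Sphingolipids, made from serine and a fatty acid, are enriched in the plasma membrane. Phospholipases, diacylglycerol kinases and phosphoinositide kinases turn part of these lipids into signals that act on membrane traffic, and vesicle traffic is one of the routes proposed for nectar release.

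The samples held 10572166 to 14213116 normalized counts in immature and 14675385 to 22709136 in mature nectaries. Ribosomal RNA and organelle transcripts took 12.8% to 42.5% of them in immature samples, and 27.6%, 63.0% and 39.9% in mature replicates 1, 2 and 3. The 108 lipid loci together made up 0.689% to 0.743% of the remaining counts in immature samples and 0.717% to 0.783% in mature samples. Of 7 nectary marker genes, 5 were found, and their summed level was 74079 to 119815 in immature and 388041 to 433775 in mature samples, so that defining genes of the labelled tissue were present at both stages. Pollen markers also differed, with 4 of 16 found (VGD1, AGP6, AGP11 and ACA9, the other 12 not found) and a summed level of 126 to 336 in immature against 18865, 2263 and 6125 in mature replicates 1, 2 and 3. Phloem markers (3 of 4 found) summed to 352 to 761 in immature and 131 to 181 in mature samples. Of stomatal and carpel markers, FAMA (1 of 6) lay between 140 and 175 in immature and between 72 and 119 in mature samples, and SHP1 (1 of 4) between 1125 and 1444 and between 644 and 883. In such bulk tissue, fewer cells of a type and less RNA per cell cannot be told apart. What part of the differences below came from these other cells or from ribosomal RNA was not tested.

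The 6 FAD desaturases and LPAT5 were lower in mature nectaries, whereas 3 serinc proteins, 2 of 4 ceramidases and a sphingolipid desaturase were higher. On a list of sterol enzymes, which holds none of the lipid loci, 13 of 14 were lower. That list, like the lipid loci, was chosen with earlier results of these data known. Phospholipases and phosphoinositide kinases moved in both directions, as did the whole table, with 28.4% of all loci tested higher and 35.9% lower. The limma test, with Benjamini-Hochberg adjustment over all loci and a threshold of 0.05, could be applied to the 106 lipid loci whose mean reached 100 normalized counts at one stage or both. Of these, 35 were higher in mature nectaries (33.0%, against 28.4% of all 11780 loci tested) and 27 were lower (25.5%, against 35.9%), while 44 did not pass the threshold. After rescaling to the counts outside ribosomal RNA and organelles the split of the lipid loci became 31 higher and 39 lower. All loci shifted towards falls as well, from 3348 higher and 4225 lower of 11780 tested to 2982 and 5254 of 11839. The median log2 fold change was 0.03 over the lipid loci and -0.09 over all loci, and after that rescaling -0.12 and -0.26. Over 2-fold, 11 of the 106 lipid loci rose, against 13.8% of all loci tested, and 18 fell, against 23.0% of all loci tested. Over 4-fold, 7 of the 106 rose, against 5.12% of all loci tested, and 8 fell, against 9.94%. The 3 mature samples lay wholly above the immature ones in 38 of the 106 lipid loci, against 30.9% of all loci tested. The immature samples lay wholly above the mature ones in 36, against 39.1% of all loci tested. Among the 106 loci, 19 reached a mean of 100 in 1 stage only, 11 of them in the immature and 8 in the mature stage. Of the 87 lipid loci at or above 100 in both stages, 29 were higher and 18 lower. Among the 9067 such loci of the whole table, 29.0% were higher and 27.8% lower. The lipid loci as a whole thus held a share of higher loci near the background and a share of lower loci below it, and no test was made of these shares.

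**Figure D1:**
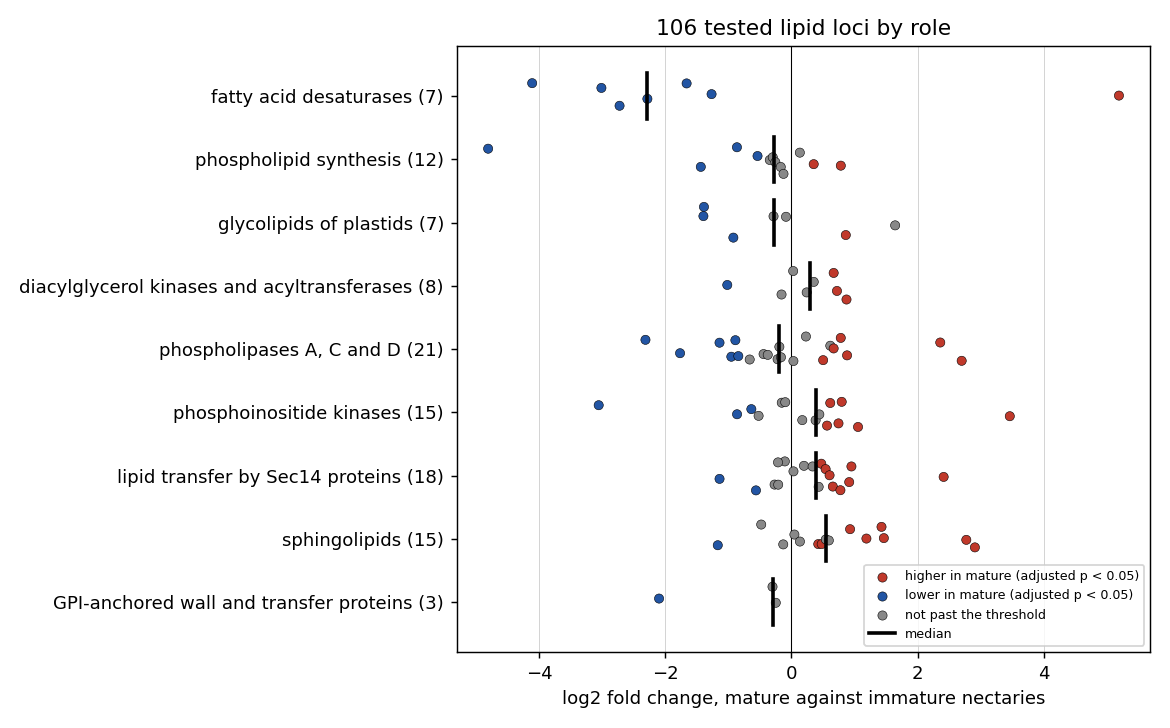
Log2 fold change of mature against immature nectaries (x axis) for the 106 tested lipid loci by role (number tested in brackets); points are loci, coloured by their call, and bars mark medians. Desaturases lie to the left with a median of -2.28 and 1 locus far to the right, and sphingolipid loci lie to the right with a median of 0.55.

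All 6 FAD loci found (FAD2, FAD3 and FAD5 to FAD8) fell in mature nectaries, against 35.9% of all loci tested. FAD2, the desaturase of the endoplasmic reticulum that turns oleic into linoleic acid, counted 8275, 7823 and 10575 in immature samples and 5080, 1801 and 2356 in mature samples. Its stages did not overlap, although mature replicate 1 was well above the other mature samples. The ratio of immature to mature means was 2.89 (log2 fold change -1.66 ± 0.36 (SE), adjusted p = 0.00395). FAD3, which adds the next double bond in the same compartment, counted 1309, 1218 and 847 in immature and 175, 163 and 161 in mature samples, a 6.76-fold difference with a narrow mature group (-2.73 ± 0.18, adjusted p = 1.11e-05).

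The plastid desaturases fell alongside them. FAD6, the plastid counterpart of FAD2, counted 920, 931 and 1122 in immature and 200, 171 and 240 in mature samples, 4.87-fold apart. FAD5, which desaturates the palmitic acid of plastid galactolipid, counted 524, 600 and 626 against 100, 62 and 58 (7.95-fold). In both loci every immature sample lay above every mature sample by a wide margin, with adjusted p = 1.56e-05 for FAD6 and 1.58e-05 for FAD5. FAD7 and FAD8 are a close pair of plastid enzymes that make linolenic acid. FAD7 counted 802, 835 and 933 in immature and 431, 282 and 367 in mature samples, and FAD8 counted 233, 249 and 276 against 14, 10 and 18. The pair differed in the size of its fall, 2.38-fold for FAD7 (log2 fold change -1.27 ± 0.18) and 18.0-fold for FAD8 (-4.11 ± 0.28). FAD8 showed the second largest fall of the tested lipid loci. The difference between both loci was not tested, and reads shared by such similar copies could have been assigned to either. The median log2 fold change of these 6 loci was -2.51, and the fall of each passed the threshold without each sample in turn.

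The seventh desaturase locus had the largest log2 fold change of the 106 tested lipid loci. Ta22039, described only as a fatty acid desaturase, matches AT4G04930, which in Arabidopsis is a desaturase of sphingolipid long-chain bases known from flowers and pollen. It counted 17, 28 and 13 in immature and 1812, 311 and 633 in mature samples. Mature replicate 1 was 5.83 times mature replicate 2, and even the lowest mature sample was far above the immature samples. The log2 fold change was 5.19 ± 0.58 (adjusted p = 0.000131), a 47.5-fold ratio of means that became 24.4-fold without mature replicate 1 (adjusted p = 6.33e-05). By its match this locus belongs with the sphingolipid genes.

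**Figure D2:**
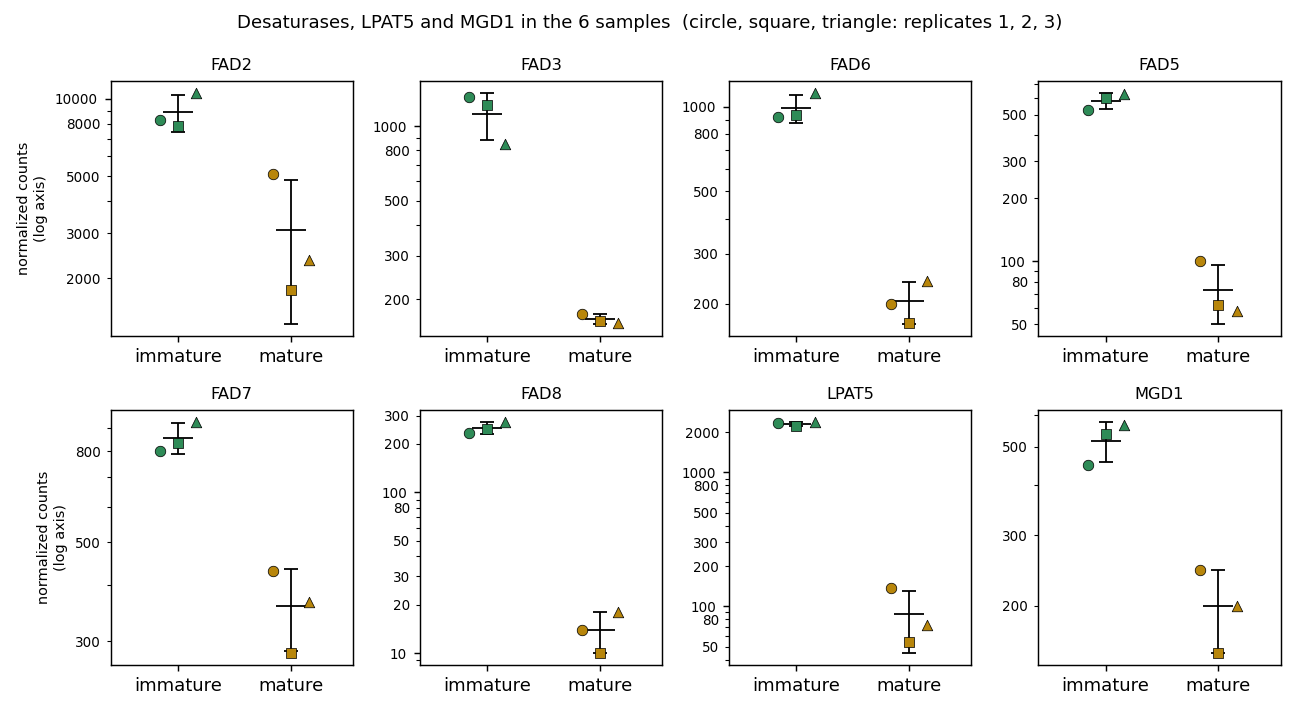
Normalized counts (y axis, log scale, separate for each panel) of 6 FAD desaturases, LPAT5 and MGD1 in immature and mature nectaries; symbols are the 3 samples of a stage, bars the mean and SD. In all 8 panels each immature sample lies above each mature sample, and mature replicate 1 of FAD2 (5080) stands above the other mature samples.

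Phospholipid synthesis held the largest fall of the tested lipid loci, that of LPAT5, and 1 further fall of over 2-fold, that of PSD1. LPAT5, an acyltransferase that turns lysophosphatidic into phosphatidic acid, counted 2344, 2208 and 2377 in immature and 136, 54 and 73 in mature samples. The immature samples hardly varied, and the mature samples were far below all of them. The ratio was 26.3-fold (log2 fold change -4.81 ± 0.30, adjusted p = 8.37e-06). Among its relatives the stages did not overlap either, with lower mature samples, but neither passed the threshold. LPAT2 averaged 625 ± 17.7 in immature and 495 ± 65.4 in mature samples (SD, n = 3, adjusted p = 0.062), and LPAT4 averaged 161 ± 7.64 and 132 ± 25.4 (adjusted p = 0.189). Of the 12 loci of this role, 4 fell (33.3%, against 35.9% of all loci tested), 2 rose (16.7%, against 28.4%) and 6 did not pass the threshold. The count of lower loci was 7 after rescaling to the counts outside ribosomal RNA and organelles.

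The 3 phosphatidylserine decarboxylases, which make phosphatidylethanolamine, went separate ways. PSD1, the mitochondrial form, counted 177, 162 and 168 in immature and 65, 54 and 67 in mature samples, and fell 2.73-fold (adjusted p = 0.000199). PSD2, which lies in the vacuolar membrane in Arabidopsis, counted 131, 123 and 93 against 190, 179 and 227 and rose 1.72-fold (adjusted p = 0.00643). Both had stages without overlap, in opposite directions, while PSD3 averaged 377 ± 25.0 and 417 ± 76.7 (adjusted p = 0.485). PIS1, which makes phosphatidylinositol, averaged 348 ± 17.2 in immature and 191 ± 12.5 in mature samples without overlap and fell 1.82-fold (adjusted p = 0.000564). The synthases of the shared precursor CDP-diacylglycerol also differed. CDS1 counted 314, 381 and 326 against 417, 432 and 452 and rose 1.27-fold (adjusted p = 0.0445), a call that was lost without any 1 of the 6 samples (adjusted p 0.0527 to 0.167). The locus Ta00424 (349, 363 and 393 against 278, 246 and 237, adjusted p = 0.00734) sums contigs of the 2 plastid forms. Its CDS5 contig counted 218, 235 and 266 in immature and 262, 230 and 220 in mature samples, and its CDS4 contig 131, 128 and 127 against 16, 16 and 17. The whole fall of this locus lay in the CDS4 contig, and on the more abundant contig alone the call was lost. The phosphatidylglycerolphosphate synthases did not pass the threshold, with means of 587 ± 30.9 and 492 ± 29.1 for PGP2 (adjusted p = 0.103), whose locus also sums a contig of an unrelated gene, and adjusted p = 0.558 for PGP1.

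Of 7 plastid glycolipid loci, 3 were lower (42.9%, near the 35.9% of all loci tested) and 1 was higher. MGD1, which makes most of the galactolipid of plastids, counted 450, 538 and 566 in immature and 246, 152 and 199 in mature samples, 2.60-fold apart (adjusted p = 0.000417). The sulfolipid enzymes SQD1 (358, 369 and 594 against 260, 181 and 244, adjusted p = 0.00845) and SQD2 (278, 247 and 417 against 190, 88 and 94, adjusted p = 0.00565) were also lower. In all 3 loci the stages did not overlap, and immature replicate 3 was the highest sample. Subunits of the importer of lipids into plastids did not pass the threshold (TGD1, adjusted p = 0.651, and TGD2, 0.12). DGD2 and MGD2 make galactolipid mainly under phosphate shortage in Arabidopsis. DGD2 counted 52, 51 and 58 in immature and 130, 70 and 104 in mature samples (1.89-fold, adjusted p = 0.0215), a call lost without immature replicate 1, immature replicate 2 or mature replicate 3 (adjusted p up to 0.0699). Without mature replicate 1 it fell below the filter and was not tested. MGD2 counted 32, 30 and 37 against 318, 37 and 97, so that mature replicate 2 overlapped with the immature samples, and the difference passed the threshold without mature replicate 2 (adjusted p = 0.00334) but not with all samples (0.0583).

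Diacylglycerol kinases turn diacylglycerol into phosphatidic acid, a membrane signal. Of 5 of these loci, 3 rose (60.0%, against 28.4% of all loci tested) and 2 did not pass the threshold. DGK1 counted 283, 275 and 351 in immature and 530, 541 and 588 in mature samples (1.83-fold, adjusted p = 0.000939). DGK2 counted 121, 146 and 115 against 202, 210 and 217, and DGK3 231, 207 and 260 against 400, 319 and 394 (adjusted p = 0.00352 and 0.00544). Their stages did not overlap, and each rise was below 2-fold. DGK5 averaged 312 ± 78.7 and 324 ± 111 (adjusted p = 0.936), and DGK7 165 ± 14.0 and 195 ± 17.5 (adjusted p = 0.181). Of the enzymes that make storage oil from diacylglycerol, the DGAT2 locus Ta11577 averaged 327 ± 16.6 in immature and 163 ± 31.8 in mature samples (SD, n = 3) without overlap and fell 2.01-fold (adjusted p = 0.000956). PDAT1, which takes the acyl chain from a phospholipid instead, counted 916, 800 and 997 against 1146, 1044 and 1275 without overlap, but did not pass the threshold (adjusted p = 0.063).

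Of 21 tested phospholipase loci, 6 were higher and 6 lower (28.6% each, against 28.4% and 35.9% of all loci tested), and 6 and 10 after rescaling to the counts outside ribosomal RNA and organelles. The non-specific phospholipases C, which cut phosphatidylcholine and related lipids into diacylglycerol and a headgroup, gave 2 rises and 2 falls. NPC4, which in Arabidopsis acts at the plasma membrane and is induced by phosphate shortage, counted 828, 729 and 1283 in immature and 7043, 5272 and 5737 in mature samples. All mature samples were above 4 times the highest immature sample. The ratio was 6.36-fold (log2 fold change 2.70 ± 0.23, adjusted p = 3.53e-05). The locus also holds contigs of the neighbouring gene NPC3, which were higher in mature nectaries as well, with contig means of 38.3 to 67.3 in immature and 122 to 249 in mature samples. NPC1, an enzyme of the secretory pathway in Arabidopsis, counted 1570, 1246 and 1978 against 3744, 2165 and 2991 (1.86-fold, adjusted p = 0.0133, and 0.0525 without immature replicate 2). NPC6 moved the other way, with 155, 127 and 159 against 30, 21 and 37 (5.01-fold lower, adjusted p = 0.000167). NPC2 was also lower, with 105, 99 and 183 against 76, 60 and 71 (adjusted p = 0.0238, and up to 0.0685 without immature replicate 3, mature replicate 2 or mature replicate 3).

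Phospholipases D cut off the headgroup and leave phosphatidic acid. PLDα1, the main form in leaves and stems of Arabidopsis, averaged 6402 ± 1712 in immature and 4704 ± 1116 in mature samples and did not pass the threshold (adjusted p = 0.162). PLDζ1, described as PLD P1, a form whose activity needs phosphoinositides, counted 277, 283 and 315 against 552, 457 and 500 and rose 1.72-fold without overlap (adjusted p = 0.00121). PLDβ1 rose 1.42-fold from 599, 607 and 717 to 981, 780 and 970 (adjusted p = 0.0183), and lost its call without immature replicate 1, immature replicate 2 or mature replicate 3 (up to 0.0761). The loci of PLDβ2, PLDδ and PLDγ1 did not pass the threshold (adjusted p = 0.908, 0.621 and 0.0602). After rescaling to the counts outside ribosomal RNA and organelles, 2 of the 6 PLD loci were lower and 2 higher, and 1 was lower without immature replicate 1 or mature replicate 1 (PLDγ1).

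Phospholipase A2 loci, which release a fatty acid and a lysophospholipid, gave 2 falls among 3 tested (66.7%, against 35.9% of all loci tested). Both loci matching PLA2-beta differed. Ta15616 counted 136, 98 and 76 against 33, 29 and 25 (3.56-fold lower, adjusted p = 0.00112, below the filter without immature replicate 1), and Ta05476 93, 109 and 60 against 110, 177 and 114 (adjusted p = 0.0884). The first fell in every mature sample, while the second lay higher in each mature than in each immature sample without passing the test. The difference between them was not tested, and reads of copies this close can be exchanged. Ta12349, described as a PLA2 family protein, fell 1.90-fold (adjusted p = 0.00558). Ta12892, which matches the PLA2-gamma gene known from Arabidopsis pollen, counted 0, 1 and 1 in immature and 110, 10 and 51 in mature samples, below the filter, and was not tested. Of the phosphoinositide-specific phospholipases C, which release diacylglycerol and an inositol phosphate, the locus of PLC4 fell 1.83-fold from 354, 411 and 405 to 259, 171 and 208 (adjusted p = 0.00254), a sum that includes contigs of PLC1 and of an unrelated gene. PLC2, the main plasma membrane form in Arabidopsis, averaged 429 ± 62.6 and 510 ± 121 (adjusted p = 0.353).

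Ta11059, named lysophospholipase 2, counted 2087, 1719 and 2099 in immature and 10123, 10771 and 9360 in mature samples. The mature samples were tight and all above 4 times the immature ones, a 5.12-fold rise (log2 fold change 2.36 ± 0.16, adjusted p = 1.20e-05). The Arabidopsis gene is better known as caffeoyl shikimate esterase of lignin synthesis, so that this locus belongs to the lipid genes by its description. Likewise the PEARLI 4 loci carry only the words phospholipase-like. Of them Ta20432 fell 2.18-fold (358, 289 and 369 against 190, 113 and 164, adjusted p = 0.00186) and Ta00372 averaged 152 ± 15.7 and 136 ± 39.8 (adjusted p = 0.465). Without the 8 loci that were matched by words only, 34 lipid loci were higher and 25 lower.

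Phosphoinositide kinases gave 6 rises (40.0%, against 28.4% of all loci tested) and 3 falls (20.0%, against 35.9%) among 15 loci. There were 6 rises and 5 falls after rescaling to the counts outside ribosomal RNA and organelles. Of 8 kinases that phosphorylate phosphatidylinositol phosphates at the fifth position, 4 rose and none fell at the threshold, although 2 were lower after that rescaling and 1 (Ta09531) without immature replicate 1. Ta14451, which matches AT1G01460, a PIP5K of Arabidopsis pollen, counted 22, 16 and 8 in immature and 439, 64 and 164 in mature samples. The mature samples differed 6.86-fold between replicates 1 and 2, yet none overlapped with the immature samples. The log2 fold change was 3.46 ± 0.67 (adjusted p = 0.00235), and the 14.5-fold ratio of means became 7.43-fold without mature replicate 1 (adjusted p = 0.00453). The other rises were smaller and even. FAB1B, which makes the bisphosphate found on endosomes and vacuoles, counted 301, 248 and 329 against 536, 443 and 545 (1.74-fold, adjusted p = 0.00259). PIP5K9, the locus Ta06053, counted 348, 330 and 337 against 580, 492 and 489 (1.54-fold, adjusted p = 0.00348). PIP5K1 counted 427, 452 and 498 against 784, 554 and 717 (1.49-fold, adjusted p = 0.0156), a call lost without immature replicate 1, immature replicate 2 or mature replicate 3 (up to 0.0651).

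The 5 phosphatidylinositol 4-kinases all passed the threshold, against 64.3% of all loci tested. Of the 5 kinases, 3 were lower (60.0%, against 35.9%) and 2 higher (40.0%, against 28.4%), and the beta pair moved in opposite directions. PI4Kβ1, which in Arabidopsis works at the trans-Golgi network in secretion, counted 557, 564 and 659 in immature and 970, 1004 and 1005 in mature samples. PI4Kβ2, its near copy, counted 156, 118 and 151 against 15, 21 and 13. The stages did not overlap in either locus. PI4Kβ1 rose 1.67-fold (log2 fold change 0.75 ± 0.13, adjusted p = 0.00124), whereas PI4Kβ2 was 8.67-fold lower (-3.06 ± 0.30, adjusted p = 6.69e-05). The fitted changes had opposite signs, though their difference was not tested and reads may be exchanged between such copies. PI4Kα1 (Ta16095) was 1.80-fold lower (adjusted p = 0.00302), but the locus sums a contig of the plastid division gene FTSZ1-1 (420, 418 and 433 against 290, 144 and 151) with its own contig (424, 390 and 521 against 279, 233 and 352). Of the gamma kinases with ubiquitin-like domains, Ta17100 counted 528, 502 and 522 against 378, 270 and 360 and fell 1.54-fold (adjusted p = 0.00776). Ta07772 counted 536, 608 and 619 against 2010, 761 and 1188 and rose 2.25-fold (adjusted p = 0.0172, and 0.0575 without immature replicate 1). The loci Ta15106 and Ta00030, which carry kinase words but match TRRAP-like proteins of the nucleus, did not pass the threshold (adjusted p = 0.526 and 0.741).

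Sec14 proteins bind and exchange phosphatidylinositol and phosphatidylcholine, and formed the largest family after the phospholipases. Of 18 loci, 8 rose (44.4%, against 28.4% of all loci tested), 2 fell (11.1%, against 35.9%) and 8 did not pass the threshold. Ta23736, matching AT3G22410, counted 52, 31 and 59 in immature and 322, 196 and 241 in mature samples, the largest rise of this family at 5.35-fold (log2 fold change 2.41 ± 0.29, adjusted p = 0.000184). The other rises were below 2-fold. Ta14178 counted 650, 671 and 696 against 1128, 1163 and 1166 (1.71-fold, adjusted p = 0.000652), with little spread in either stage. Ta17495 counted 183, 205 and 198 against 349, 346 and 448 (1.95-fold, adjusted p = 0.000773) and Ta20905, which matches the patellin PATL3, 407, 395 and 541 against 978, 706 and 849 (1.89-fold, adjusted p = 0.00254). Ta20306 passed with all samples (adjusted p = 0.0366) but not without 5 of the 6 samples in turn (up to 0.103). Of the falls, Ta18164 counted 815, 651 and 652 against 374, 278 and 309 (2.20-fold lower, adjusted p = 0.000464), and Ta19447 229, 263 and 259 against 186, 167 and 155 (1.48-fold lower, adjusted p = 0.00847). Both had stages without overlap. The loci Ta21556 and Ta03613 averaged 1147 ± 189 and 1096 ± 118 in immature and 1318 ± 214 and 953 ± 156 in mature samples (adjusted p = 0.358 and 0.293).

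Sphingolipid loci rose more often than they fell, with 8 higher (53.3%, against 28.4% of all loci tested), 1 lower (6.67%, against 35.9%) and 6 not past the threshold among 15, and a median log2 fold change of 0.55 (all loci -0.09). The median was 0.39 after rescaling to the counts outside ribosomal RNA and organelles. It was 0.38 without mature replicate 1, where 7 were higher and 2 lower. The count of higher loci was 6 without immature replicate 1, 7 without immature replicate 2 or 3, and 10 without mature replicate 2. All 3 serinc loci rose. Serinc proteins are multipass membrane proteins named in animals for bringing serine into phosphatidylserine and sphingolipids. Ta25704 counted 56, 82 and 58 in immature and 414, 457 and 468 in mature samples. Ta01624 counted 399, 330 and 451 against 1140, 821 and 1243, and Ta03723 1181, 1002 and 1357 against 2763, 2196 and 3142. In each locus the lowest mature sample was clearly above the highest immature sample. The rises were 6.83-fold (log2 fold change 2.77 ± 0.18, adjusted p = 1.08e-05), 2.72-fold (1.43 ± 0.20, 0.000366) and 2.29-fold (1.19 ± 0.18, 0.000723).

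SLD2, a desaturase of sphingolipid long-chain bases, also rose. It counted 227, 229 and 298 in immature and 4027, 1029 and 1602 in mature samples. Mature replicate 1 was 3.91 times mature replicate 2, and all mature samples were above 3 times the highest immature sample. The log2 fold change was 2.91 ± 0.43 (adjusted p = 0.00057), an 8.83-fold ratio of means that became 5.23-fold without mature replicate 1 (adjusted p = 7.25e-05). Its sister SLD1 counted 207, 255 and 243 against 568, 202 and 385 with overlap and did not pass the threshold (adjusted p = 0.151, and 0.00329 without mature replicate 2). The hydroxylases of the long-chain base, SBH1 and SBH2, did not pass either. SBH1 averaged 121 ± 4.62 and 134 ± 22.3 (adjusted p = 0.517). SBH2 counted 151, 147 and 122 against 238, 47 and 88, with mature replicate 1 above and the other mature samples below all immature samples (adjusted p = 0.424), and without mature replicate 1 it was lower (adjusted p = 0.0106).

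Ceramidases split ceramide into a fatty acid and a long-chain base. NCER1 counted 93, 100 and 132 in immature and 325, 239 and 339 in mature samples and rose 2.78-fold (log2 fold change 1.47 ± 0.20, adjusted p = 0.00037). NCER3 counted 153, 143 and 149 against 274, 317 and 262 (1.92-fold, adjusted p = 0.000566). The stages of both were clearly apart, while NCER2 averaged 433 ± 31.6 and 400 ± 82.8 (adjusted p = 0.523) and the alkaline ceramidase locus Ta19116 376, 388 and 413 against 385, 459 and 376 (adjusted p = 0.774). Further steps moved less. IPCS1, which puts the inositol phosphate headgroup on ceramide, counted 339, 362 and 303 against 479, 463 and 407 (1.34-fold, adjusted p = 0.0244, and up to 0.0765 without immature replicate 1, immature replicate 3 or mature replicate 1). The locus of the sphingosine kinases SPHK1 and SPHK2, which phosphorylate the long-chain base, counted 506, 446 and 526 against 789, 633 and 646 (1.40-fold, adjusted p = 0.0188, and up to 0.0868 without immature replicate 1 or 2). The lyase that ends long-chain base breakdown did not pass (Ta11398, adjusted p = 0.0718), nor did ACD5 (adjusted p = 0.346), a ceramide kinase that is described as a diacylglycerol kinase. The 1 fall was Ta26561, described as a sphingomyelin synthetase family protein, with 606, 502 and 638 against 318, 258 and 207 (2.23-fold lower, adjusted p = 0.000805).

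**Figure D3:**
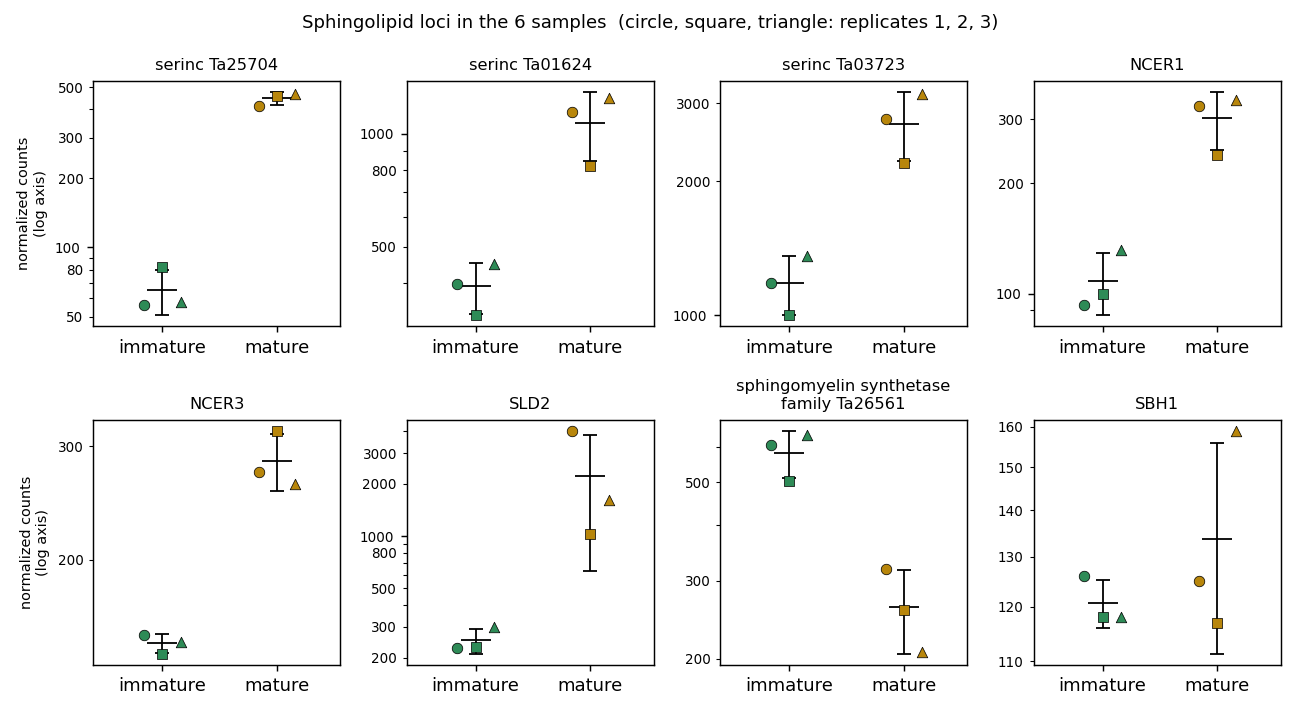
Normalized counts (y axis, log scale, separate for each panel) of 8 sphingolipid loci in immature and mature nectaries; symbols are the 3 samples of a stage, bars the mean and SD. The 3 serinc loci, NCER1, NCER3 and SLD2 lie higher in each mature sample, Ta26561 lies lower, and SBH1 overlaps between the stages.

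A few remaining loci carry lipid words but act elsewhere. LTPG1, a lipid transfer protein anchored to the plasma membrane that exports cuticular lipids, counted 664, 523 and 464 in immature and 168, 115 and 104 in mature samples and fell 4.27-fold without overlap (adjusted p = 8.64e-05). Of the COBRA-like wall proteins, Ta01808 averaged 1045 ± 150 and 881 ± 149 (adjusted p = 0.241), and Ta19377 did not pass either (adjusted p = 0.146). Ta02334, a subunit of the enzyme that starts GPI anchor synthesis, counted 89, 65 and 97 against 101, 82 and 113, below the filter.

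The wider pathways were read from 8 lists of Arabidopsis genes, of which 6 hold lipid loci described above together with others, while the sterol and flippase lists hold none of them. On the desaturase list, 8 of 8 tested loci fell (median log2 fold change -2.08), as SSI2, which makes oleic acid in the plastid, and ADS2 fell along with the FAD loci. Sterol synthesis, which makes the other main lipid of the plasma membrane, was lower in 13 of 14 loci (92.9%, against 35.9% of all loci tested) with a median of -1.62. Its steps included DWF5 (636, 524 and 653 against 67, 54 and 68), SMT1 (542, 538 and 597 against 88, 109 and 119) and DWF1 (3245, 3062 and 4005 against 647, 512 and 478). In each of these 3 genes the mature samples lay far below the immature ones, and CYP51A2 was the 1 gene that did not pass (adjusted p = 0.055). Among genes that supply phosphatidic acid and diacylglycerol, 2 of 11 were lower (18.2%, against 35.9% of all loci tested), 9 did not pass the threshold and none was higher. There were 4 lower after rescaling to the counts outside ribosomal RNA and organelles, and 2 higher without mature replicate 2. The falls were LPAT5 and ATS1, the plastid acyltransferase (302, 253 and 322 against 106, 91 and 105).

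Of 20 headgroup enzymes of phospholipids, 4 were higher (20.0%, against 28.4% of all loci tested) and 7 lower (35.0%, against 35.9%). ROD1, which exchanges headgroups between phosphatidylcholine and diacylglycerol, counted 627, 623 and 647 against 254, 169 and 279, and PLMT, which methylates towards phosphatidylcholine, 226, 193 and 165 against 83, 72 and 86. The choline kinases split, as CK1 counted 78, 93 and 110 against 269, 167 and 265, and CK2 144, 123 and 104 against 69, 47 and 64. Both ROD1 and PLMT were lower in every mature sample, as was CK2, whereas CK1 was higher. Among 12 plastid glycolipid and import genes 2 were higher (16.7%, against 28.4% of all loci tested) and 6 lower (50.0%, against 35.9%). SFR2, a galactolipid-remodelling enzyme of freezing tolerance, counted 1018, 929 and 1316 against 426, 321 and 313. UGP3 of sulfolipid synthesis counted 250, 240 and 280 against 184, 126 and 165. After rescaling to the counts outside ribosomal RNA and organelles, none of that list was higher and 8 were lower. Flippases, which move phospholipids between membrane leaflets, fell in 5 of 13 loci (38.5%, near the 35.9% of all loci tested) and rose in 1 (ALA11), which was below the filter without mature replicate 1. With median-ratio scaling 4 were lower and 3 higher, and without mature replicate 2 the count of higher loci was 2. ALA4 counted 465, 445 and 362 against 111, 128 and 105, and the ALA3 locus Ta01708 582, 717 and 687 against 256, 208 and 214.

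For sphingolipids the lists separated base and ceramide synthesis from headgroups and breakdown. Base and ceramide synthesis had a median of 0.04 (-0.11 after rescaling to the counts outside ribosomal RNA and organelles). Of its 18 loci, 6 were higher (33.3%, against 28.4% of all loci tested) and 5 lower (27.8%, against 35.9%). Without immature replicate 3 these counts were 3 and 3, and without immature replicate 1, mature replicate 2 or mature replicate 3 the count of lower genes was 3. PAS2 (694, 671 and 716 against 141, 99 and 159) and CER10 (1048, 940 and 964 against 317, 274 and 307) were lower. With KCR1, which also fell (adjusted p = 0.0279, and up to 0.0809 without 1 sample), these are steps of very-long-chain fatty acid elongation, shared with wax and cuticle synthesis. LCB1 and LCB2a, subunits of the first enzyme of sphingolipid synthesis, did not pass the threshold (adjusted p = 0.941 and 0.889), while LCB2b, another form of the second subunit, was higher (adjusted p = 0.0464, and up to 0.140 without 1 sample). ORM proteins restrain that enzyme. ORM1 counted 141, 146 and 155 against 340, 247 and 326, and the ORM2 locus Ta13249 187, 156 and 156 against 309, 325 and 362, 2.07-fold and 2.00-fold higher, while the second ORM2 locus Ta09913 was lower with all samples (adjusted p = 0.0431) and lost that call without any 1 of them. Of 14 headgroup and breakdown genes (median 0.25), 5 were higher (35.7%, against 28.4% of all loci tested) and none lower at the threshold. The 5 were the 4 sphingolipid loci above (NCER1, NCER3, SPHK1 and IPCS1) and SPP1, a phosphatase of long-chain base phosphates. After rescaling to the counts outside ribosomal RNA and organelles 4 were higher and 3 lower, and the count of higher genes was 2 without immature replicate 1 and 3 without immature replicate 2, immature replicate 3 or mature replicate 1.

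**Figure D4:**
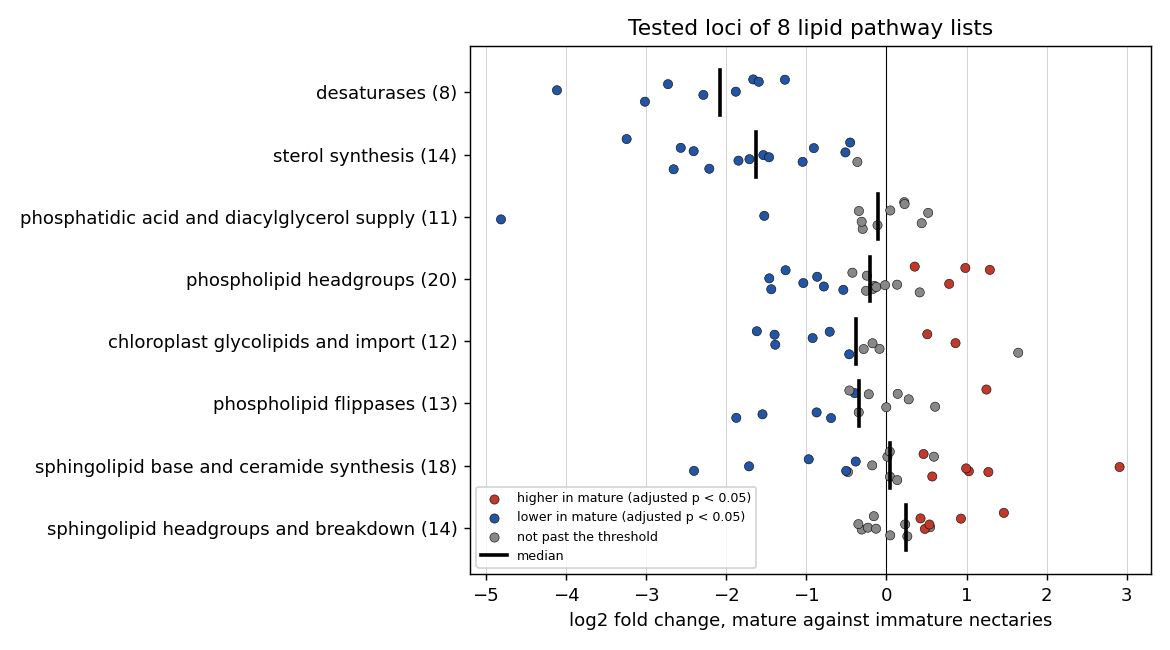
Log2 fold change of mature against immature nectaries (x axis) for the tested loci of 8 lipid pathway lists (number tested in brackets); points are loci, coloured by their call, and bars mark medians. The desaturase and sterol lists lie to the left (medians -2.08 and -1.62). The sphingolipid lists have medians of 0.04 (base and ceramide synthesis) and 0.25 (headgroups and breakdown).

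The mature samples did not resemble each other equally, and this touched part of the largest rises. Of the lipid loci, 7 (6 of them tested) were over 3 times higher in mature replicate 1 than in mature replicate 2: Ta22039, Ta14451, SLD2, MGD2, Ta12892, the Sec14 locus Ta10131 and SBH2. Over all tested loci this held for 508, or 4.31%, and the median ratio of mature replicate 1 to 2 was 1.26 for lipid loci and for all loci. In each of these 7 loci mature replicate 3 lay between the others, while the choice of the loci had already set replicate 1 above replicate 2. The 4 pollen markers found had the same order of mature samples, with ratios of replicate 1 to 2 between 7.04 and 8.77. Loci that fell, such as FAD2, FAD7 and MGD1, had this order too, though others such as FAD5 did not. How common the order was among all loci was not counted. VGD1, a pectin methylesterase of pollen tubes, counted 73, 215 and 81 in immature and 13877, 1583 and 4424 in mature samples. The ribosomal and organelle share of the mature samples was 27.6%, 63.0% and 39.9% in replicates 1, 2 and 3, so that it had the opposite order. Whether pollen in the samples or the depth outside ribosomal RNA had a part in these values was not tested. Without mature replicate 1, Ta22039, Ta14451 and SLD2 were still higher in mature nectaries, while Ta10131 (112, 92 and 129 against 257, 49 and 67, adjusted p = 0.747 with all samples) was lower (adjusted p = 0.0129), as was SBH2. The serinc loci, NCER1 and NCER3 did not have the order 1, 3, 2, and NPC4 had it with a ratio of replicate 1 to 2 of 1.34. Other rises that had it included Ta07772, NPC1 and PIP5K1, with ratios of 2.64, 1.73 and 1.42. SLD1, which did not pass the threshold, had it with a ratio of 2.81.

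**Figure D5:**
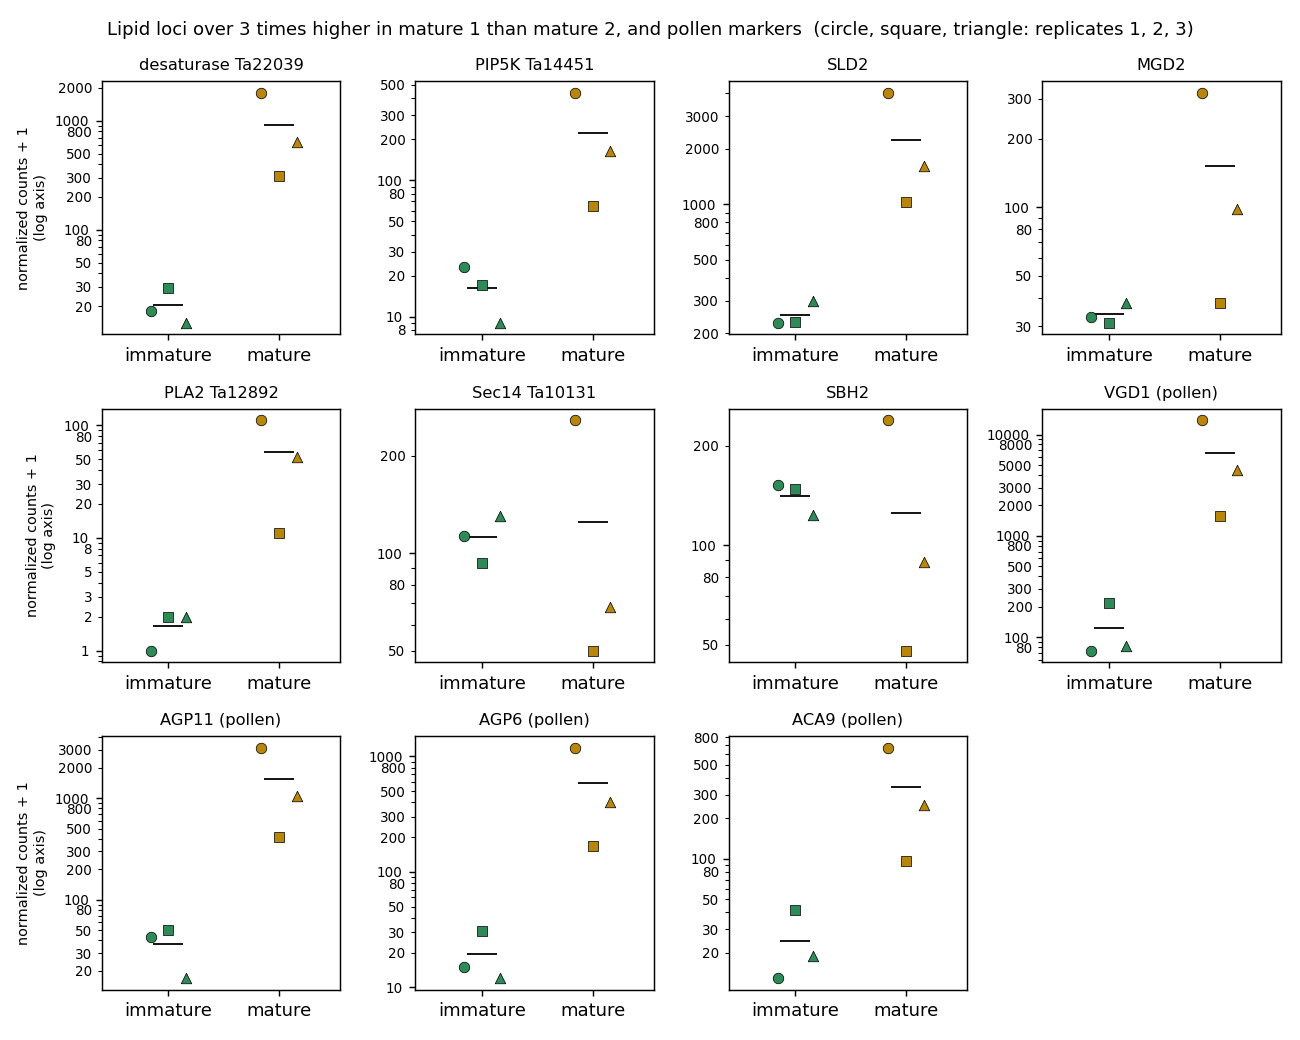
Normalized counts plus 1 (y axis, log scale, separate for each panel) of the 7 lipid loci over 3 times higher in mature replicate 1 than in mature replicate 2 and of 4 pollen markers; symbols are the 3 samples of a stage and bars the mean. In all 11 panels mature replicate 1 is highest, replicate 3 lies between and replicate 2 is lowest. For the 7 lipid loci the choice had already set replicate 1 above replicate 2.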

How the data were processed

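Pennycress nectary RNA was sequenced by the authors (TruSeq RNA v2 libraries, paired reads, Illumina sequencing) in 3 immature and 3 mature samples. The authors built contigs with Trinity, joined them to an existing transcriptome of the species, counted reads on them by blastn and scaled samples to their upper quartiles. The deposited scores used here are these normalized counts, rounded to whole numbers by the authors, so no count model was applied. The deposited mean ratios, differential expression flags and DESeq p-values are the authors' own comparisons and were not used. The kit does not keep strand, and reads of overlapping antisense genes or of near-identical copies cannot be told apart. No source used here gives the genome build. Locus lengths, positions and sequences were not used, and levels are therefore not compared between loci.

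Contigs (16074, of which 617 had no locus) were summed by locus, and each locus took the Arabidopsis match and description of its most abundant contig. The 108 lipid loci held 130 contigs. Of per-sample columns, 0 were left out. Loci whose mean reached 100 at one stage or both were tested with limma 3.58.1 in R 4.3.3 (mean-variance trend, log2(sum + 1), Benjamini-Hochberg over all 11780 loci, threshold 0.05). Fold changes are ratios of stage means, log2 fold changes are on the log2(sum + 1) scale, and p-values measure the spread between pools from different plant sets. Tables used Python 3.11.15 with pandas 2.3.3 and numpy 2.4.6, figures matplotlib 3.10.9. The fit was run on simulated counts with a fixed dispersion and equal depth. Such a run does not show how the fit behaves with the uneven depth and spread of these samples.

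Roles came from words in the descriptions, and 3 loci were moved by hand. Loci were named by rule: all of a role with few loci, otherwise the 3 with the highest level and up to 3 called in each direction with a mean of at least 300 and no overlap, the 5 largest rises and falls, and from each list up to 4 called genes by smallest adjusted p. Further loci, such as relatives of these and loci whose mature samples differ, were chosen after their values were seen. The lipid loci, roles and lists were chosen with earlier results of these data known. Alternatives were pseudocounts of 0.5 and 10, no filter or one at 500, 2 rescalings, the most abundant contig, no trend, robust moderation, a replicate block, stricter thresholds and leaving out each sample. Leaving out the 8 loci matched by words only was added after the data were seen.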

Additional observations from a re-analysis of the deposited data

Results flagged for a closer look

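Contigs that were assigned to no pennycress locus lay outside the comparisons above, and 3 of them carry lipid words. Both contigs matching FAD2 (AT3G12120) had mean normalized counts of 141 ± 34.4 and 115 ± 31.0 in immature nectaries against 41.7 ± 22.0 and 32.7 ± 22.9 in mature nectaries (SD, n = 3). Their samples read 115, 128 and 180 against 67, 27 and 31, and 84, 115 and 146 against 59, 18 and 21, without overlap between stages. Mature replicate 1 was the highest mature sample in both, as it was for the FAD2 locus Ta12495. A contig matching the PEARLI 4 gene AT2G20950 averaged 148 ± 29.1 in immature and 82.7 ± 18.9 in mature nectaries. These contigs were not tested.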

How the results depend on the processing

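Of the 106 tested lipid loci, 35 were higher and 27 lower, with a median log2 fold change of 0.03. Leaving out each sample in turn gave 27 to 40 higher, 26 to 31 lower and a median of -0.11 to 0.22, with -0.11 without mature replicate 1 and 0.22 without mature replicate 2. In all such fits that tested them, 26 of the higher and 26 of the lower loci kept their call. A filter at a mean of 500 gave 22 higher, 12 lower and a median of 0.35, since fewer loci were tested. Rescaling to the counts outside ribosomal RNA and organelles gave 31 higher, 39 lower and a median of -0.12, and the cause was not tested. Over all loci that rescaling gave 2982 higher and 5254 lower of 11839 tested, with a median of -0.26. Asking for a 2-fold change in addition left 11 higher and 18 lower. The total counts of higher and of lower lipid loci moved by less than 1.5 times under pseudocounts of 0.5 or 10, no filter, the median-ratio scaling (42 and 27), the most abundant contig, no trend, robust moderation, a threshold of 0.01 or without the 8 loci matched by words. The replicate numbers were not treated as pairs, since deviations of same-numbered samples correlated at -0.07, 0.01 and 0.20. With a replicate block 38 were higher and 27 lower, with a median of 0.03. None of the lipid loci named by rule reversed a called direction. Further loci named here, and genes found only on the lists, were not part of that check. Values are normalized, rounded counts, so that low loci such as Ta12892 and Ta14451 in immature samples rest on few reads.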
